A study of Homo sapiens with 34 samples.

Results

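Of 6543 merged regions bound by any of 6 Flag-tagged constructs in SW872 cells, a human liposarcoma line, 617 held a peak of both YAP5SA and the YAP-TFE3 fusion and no peak of TAZ4SA, the TAZ-CAMTA1 fusion or TFE3. Peaks on chromosomes 1 to 22 and X that shared at least 1 bp were joined into a region, and a CAMTA1 peak was allowed. Both YAP constructs were present in 1361 regions, so the YAP regions without TAZ or TFE3 peaks made up 45.3% of them (95% Wilson interval 42.7 to 48.0). They were 16.5% of the 3745 regions with a YAP5SA peak and 18.6% of the 3316 regions with a YAP-TFE3 peak. Peak calls alone chose the regions, so their number and the presence of both YAP peaks are descriptions and not results.

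Chromatin immunoprecipitation with an antibody to the Flag tag was followed by sequencing to map where the fusion proteins found in epithelioid hemangioendothelioma, a sarcoma of vascular cells, sit relative to their parents. YAP5SA and TAZ4SA are active forms of YAP and TAZ in which serines that LATS kinases phosphorylate are changed to alanine. YAP-TFE3 and TAZ-CAMTA1 join the amino terminus of YAP or TAZ to the carboxy terminus of TFE3 or CAMTA1, and full-length TFE3 and CAMTA1 were the other comparators. The constructs entered the cells by retrovirus and were held in pooled, drug-selected lines, with 3 Flag libraries per construct, while cells with an empty vector (EV) gave 2 IgG libraries. Per the deposited descriptions, CAMTA1 cells were collected before confluence and all other cells near confluence. An expressed, tagged protein in a liposarcoma line is not the fusion at its own locus in a vascular tumour, and binding of the cells' own untagged proteins was not measured. The reads of a construct were pooled before peaks were called, so each construct had 1 list, no value has an error between replicates, and no difference between constructs could be tested.

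YAP and TAZ are paralogous coactivators of the Hippo pathway. They do not bind DNA themselves and reach chromatin mainly through TEAD transcription factors, often at enhancers far from gene starts. When the Hippo kinases are active, phosphorylation by LATS keeps both proteins out of the nucleus, and the alanine forms escape this control. TFE3 belongs to the MiT/TFE family of basic helix-loop-helix leucine zipper factors, which bind DNA directly and are known for control of lysosome and autophagy genes. CAMTA1 is a calmodulin-binding transcription activator.

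The lists differed in depth. Mean coverage, recovered from the peak values, was 10.7 fragments per base for YAP5SA and 10.5 for YAP-TFE3, against 2.33 for TAZ4SA and 2.52 for TAZ-CAMTA1, with 8.61 for TFE3 and 2.21 for CAMTA1. The YAP5SA list held 3754 peaks on chromosomes and the YAP-TFE3 list 3336, against 1166 and 1184 for TAZ4SA and TAZ-CAMTA1, 299 for TFE3 and 156 for CAMTA1. Depth and protein family cannot be told apart, because both TAZ lists were shallow and both YAP lists deep. The absence of a TAZ peak is therefore the absence of a call at the lower depth, and not a measurement of absent binding.

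Fold enrichment, the authors' ratio of fragment coverage at a summit to local background, was low to moderate in the 617 regions. It ran from 2.06 to 12.8 for YAP5SA, with a median of 4.75 and a middle range (the quartiles) of 3.96 to 5.89. For YAP-TFE3 it ran from 1.92 to 18.2, with a median of 4.499 and a middle range of 3.82 to 5.63. The lower end is set by the caller's threshold of q = 0.1, and the middle ranges of both constructs overlapped over most of their length. At the summits, the YAP5SA peaks held 40 to 175 fragments (median 68) and the YAP-TFE3 peaks 37 to 346 (median 61). Of the 617 regions, 534 had q below 0.01 in both lists. The median −log10 q was 5.49 for YAP5SA and 5.31 for YAP-TFE3.

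Regions bound by both YAP constructs and also by TAZ constructs had higher YAP5SA medians. The YAP5SA median fold enrichment was 5.74 in the 198 regions that also had TAZ-CAMTA1 and no TAZ4SA, 6.40 in the 191 with TAZ4SA and no TAZ-CAMTA1, and 7.11 in the 264 with both. The YAP-TFE3 medians in the same groups were 5.33, 4.72 and 5.70. In the 77 regions with TFE3 and neither TAZ construct, the order was turned, with 4.46 for YAP5SA and 8.75 for YAP-TFE3. The regions without TAZ or TFE3 peaks were also the narrowest group, with a median width of 461 bp, against medians between 587 and 846 bp in those 4 groups. A merged region grows with each added peak, so its width is partly set by the rule.

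**Figure D1:**
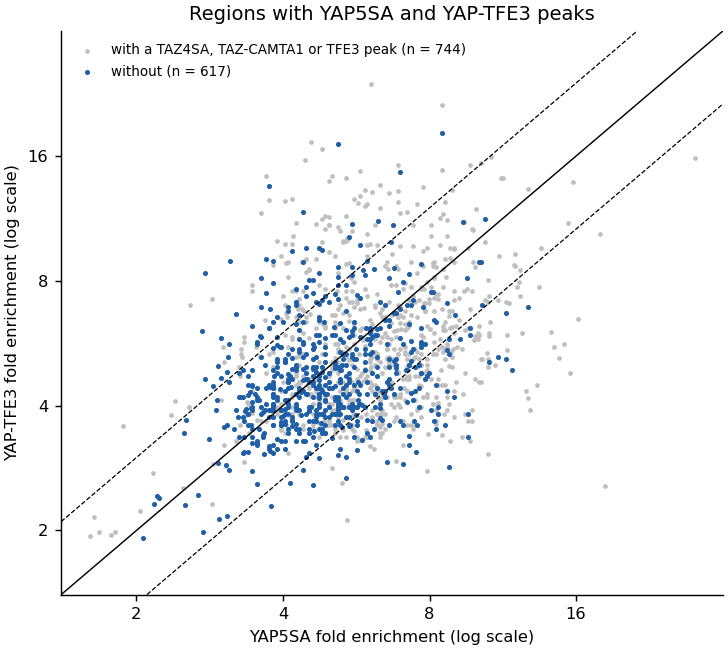
Fold enrichment in the YAP5SA list (horizontal, log scale) against the YAP-TFE3 list (vertical, log scale), 1 point per region, with the 617 regions lacking TAZ4SA, TAZ-CAMTA1 and TFE3 peaks in blue and the other 744 in grey. The solid line marks equal values and the dashed lines a ratio of 1.5 either way, and 475 of the 617 blue points lie between the dashed lines.

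The 10 strongest members were taken by the geometric mean of both fold enrichments, and 4 of them lay on chromosome 5, which held 22.4% of the 617. Regions without TFE3 were also ranked by this mean into 4 bins of equal size. Of the members in the highest bin, 22.1% lay on chromosome 5, close to its share of all members. All positions are on GRCh37, and no base sequence or gene is given, since the genome and annotation supplied were of GRCh38. The top region, chr19:48423330-48424270, had a YAP5SA fold enrichment of 8.48 (95% counting interval 7.14 to 9.99, 136 fragments) and a YAP-TFE3 fold enrichment of 18.2 (16.1 to 20.6, 253 fragments). Next was chr5:135388752-135390117, with 10.4 for YAP5SA (8.80 to 12.2) and 11.3 for YAP-TFE3 (9.59 to 13.2). At this region the intervals overlapped, whereas at the first YAP-TFE3 was higher beyond counting error. The region chr5:36502651-36503520 had 9.36 for YAP5SA and 11.1 for YAP-TFE3. At chr20:49261954-49262831 the values were 6.97 (5.68 to 8.48) and 14.7 (12.7 to 16.8).

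The highest YAP5SA value of all members, 12.8 (10.98 to 14.8, 175 fragments), was at chr5:31987961-31988770, where YAP-TFE3 reached 6.91 (5.59 to 8.45, 89 fragments). The region chr7:116083051-116083560 was alike, with 11.5 for YAP5SA and 6.68 for YAP-TFE3. At both of these regions YAP5SA was the higher beyond counting error. Values closer to each other were seen at chr1:23523435-23523824 (10.2 and 8.86), chr5:10555330-10556033 (10.1 and 8.89) and chr3:139021138-139021517 (9.55 and 8.11), with YAP5SA given first. The last of the 10, chr19:50639909-50640702, had 5.20 for YAP5SA (104 fragments) and 17.1 for YAP-TFE3 (346 fragments). Strong peaks of the YAP constructs thus occurred without a TAZ call, and the distance from these regions to the nearest TAZ4SA, TAZ-CAMTA1 or TFE3 peak ran from 2360 bp at chr5:10555330-10556033 to 495639 bp at chr19:50639909-50640702.

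YAP5SA and YAP-TFE3 fold enrichments in the 617 regions mostly lay within 1.5-fold of each other. Most values of both lay in a narrow band above the caller's threshold, so ratios near 1 were partly set by the rule. From region to region the values followed each other weakly (Spearman correlation 0.307). The ratio of the YAP-TFE3 to the YAP5SA fold enrichment ran from 0.324 to 3.61, with a median of 0.948 and a middle range of 0.759 to 1.17. YAP-TFE3 was the higher in 259 regions (42.0%), and 475 regions (77.0%, 73.5 to 80.1) lay within 1.5-fold. YAP-TFE3 exceeded YAP5SA by more than 1.5-fold in 63 regions (10.2%, 8.06 to 12.9), against 13.0% of all 1361 regions with both peaks. YAP5SA exceeded YAP-TFE3 by more than 1.5-fold in 79 regions (12.8%, 10.4 to 15.7), against 19.4% of the 1361. Both shares were below the background over all regions, which includes the 617. The direction of this split depends on scaling. Dividing each ratio by the median over the 1361 regions (0.927) gave 90 regions with YAP-TFE3 more than 1.5-fold higher and 54 with YAP5SA. The background shares were not computed at that scaling.

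With the counting error of the fragments taken into account, the intervals of both fold enrichments overlapped in 491 of the 610 regions whose fragments could be recovered in both lists. They were apart with YAP-TFE3 higher in 57 regions, 9.24% of the 617, against 13.0% of all 1361. They were apart with YAP5SA higher in 62 regions, 10.05%, against 17.0% of all 1361. These intervals carry no error between replicates.

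The other groups of YAP5SA and YAP-TFE3 regions were less balanced. In regions with TAZ4SA and no TAZ-CAMTA1, YAP5SA was more than 1.5-fold higher in 35.1% (28.7 to 42.1), and the median ratio was 0.777. In regions with both TAZ constructs the share was 31.1% (25.8 to 36.9), and the median ratio was 0.806. Regions with TAZ-CAMTA1 alone of the TAZ constructs were nearer to the 617, with a share of 17.2% (12.6 to 23.04) and a median ratio of 0.925. Regions with TFE3 lay on the other side, where YAP-TFE3 was more than 1.5-fold higher in 61.0% (49.9 to 71.2) and the median ratio was 1.74. The rule removed regions by the TAZ and TFE3 lists, and the YAP-TFE3 protein holds part of TFE3, so these groups were not independent of the rule.

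**Figure D2:**
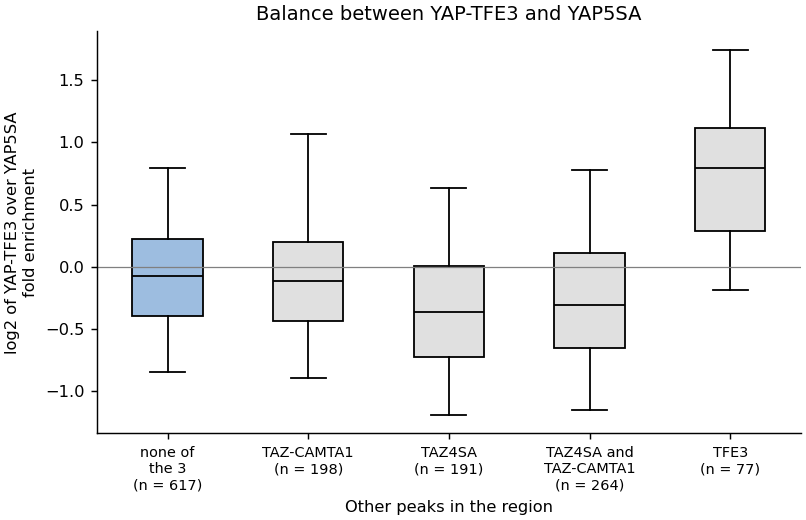
The log2 ratio of YAP-TFE3 to YAP5SA fold enrichment (vertical) in regions holding both peaks, grouped by which other peaks they held. Boxes span the quartiles with the median as a line, whiskers run from the 5th to the 95th percentile of regions, and the blue box of the 617 regions sits close to 0 while the TFE3 group lies above it.

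The ends of the ratio range were named too. YAP-TFE3 led most at chr6:34724434-34725152, with a fold enrichment of 13.5 (11.6 to 15.6) against 3.74 for YAP5SA (2.96 to 4.69), a ratio of 3.61. The local background under YAP5SA was raised there, at 16.3 fragments. The strong region chr19:50639909-50640702 followed with a ratio of 3.29. At chr5:14449576-14450356 the YAP-TFE3 value was 8.34 and the YAP5SA value 2.77, with the YAP5SA background also raised (19.6 fragments). At chr5:158878300-158878954 the values were 8.94 and 3.12. In the fifth, chr11:115493445-115494221, they were 11.7 and 4.39, and both backgrounds stood at the genome-wide level.

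At the opposite end, YAP5SA led most at chr5:53625245-53626124, with 8.76 (7.30 to 10.4) against 2.84 for YAP-TFE3 (2.16 to 3.67), a ratio of 0.324. The YAP-TFE3 background there was raised, at 16.9 fragments. At chr5:73359005-73360155 YAP5SA had 9.62 and YAP-TFE3 3.37, and at chr5:68194504-68195193 they had 9.62 and 3.82. The 3 regions with the lowest ratios were thus all on chromosome 5, which held 22.4% of the 617. The next were chr17:38470940-38471226, with 7.04 and 2.89, and chr7:37071380-37071816, with 7.52 and 3.09. The YAP-TFE3 background was raised at both, at 16.9 fragments on chromosome 17 and 12.7 on chromosome 7.

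The summits of both constructs lay close together, which the overlap of narrow peaks that the rule asked for partly sets. Regions had a median width of 461 bp, and the peaks of both constructs overlapped by a median of 249 bp. The distance that such overlap alone would give was not computed. The median distance between the YAP5SA and the YAP-TFE3 summit was 42 bp (middle range 16 to 104 bp, highest 1516 bp). Summits lay within 100 bp of each other in 455 regions, 73.7% (70.1 to 77.1). This share was 75.8% in regions with TAZ-CAMTA1, 78.5% with TAZ4SA, 80.3% with both and 81.8% with TFE3. In 517 regions each summit fell inside the peak of the other construct, and in 432 the peaks overlapped by at least 50% of each. Of the 617 regions, 614 held a single peak of each construct and 3 held 2 YAP-TFE3 peaks, among them chr5:131832790-131834177 and chr5:56737309-56738163. Region widths ran from 220 bp at chr1:115722165-115722384 to 2620 bp at chr13:97793089-97795708.

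A single one of the 617 regions held a CAMTA1 peak, the region chr5:135372585-135373822. CAMTA1 peaks were few, in 156 of all 6543 regions, and this region was 0.641% of those. The share with CAMTA1 among all regions with both YAP peaks was not computed. The CAMTA1 fold enrichment there was 9.50 (−log10 q of 24.99), against 4.14 for YAP5SA (55 fragments) and 4.71 for YAP-TFE3 (60 fragments). CAMTA1 was thus higher than both YAP constructs at this region, although the lists differ in scaling. It was 14.9 kb from chr5:135388752-135390117, the region next to the top by strength. None of the 617 regions overlapped any of the 4 EV IgG peaks on chromosomes, and 0 of 617 allows a share of up to 0.486%. With only 4 such peaks, little overlap was possible whatever the regions were, so this limit does not bound background binding.

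How often a YAP5SA and YAP-TFE3 region lacked TAZ peaks changed with its strength. Among the 1270 such regions without TFE3, ranked into 4 bins of equal size, the members made up 73.6% (68.5 to 78.1) of the bin with the lowest YAP5SA fold enrichment, 58.7% (53.2 to 64.0) of the next, 38.5% (33.3 to 43.9) of the third and 23.6% (19.3 to 28.5) of the highest. Over the same bins the share with a TAZ4SA peak went from 14.2% to 62.3%, and the share with a TAZ-CAMTA1 peak from 18.2% to 55.3%. Ranked by YAP-TFE3 fold enrichment instead, the share without TAZ peaks went from 63.8% (58.4 to 68.9) to 32.4% (27.5 to 37.7). With the YAP5SA and YAP-TFE3 lists shortened to their 1166 strongest peaks, the length of the TAZ4SA list, 94 of 389 regions (24.2%) lacked TAZ and TFE3 peaks. The share of YAP regions without TAZ peaks thus moved with list length and peak strength.

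**Figure D3:**
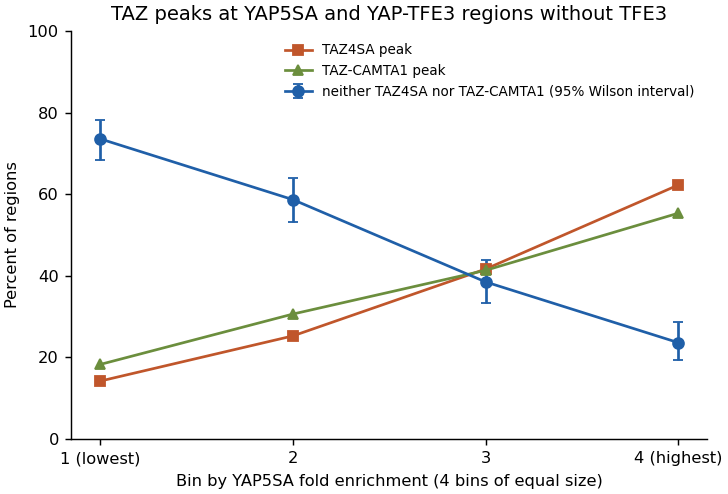
Percent of the 1270 YAP5SA and YAP-TFE3 regions without TFE3 (vertical) that lacked both TAZ peaks, or held a TAZ4SA or a TAZ-CAMTA1 peak, by bin of YAP5SA fold enrichment (horizontal). Bars on the blue points are 95% Wilson intervals, and the blue line runs from 73.6% in the lowest bin to 23.6% in the highest.

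Many of the regions had a deposited fold enrichment at or above what a TAZ peak needed on the lowest background of its list. On the lowest background, a TAZ4SA peak needed a fold enrichment of 3.61 and a TAZ-CAMTA1 peak 3.41. The YAP5SA value was at or above 3.61 in 531 regions (86.1%, 83.1 to 88.6), the YAP-TFE3 value in 510 (82.7%, 79.5 to 85.4), and both values in 457 (74.1%, 70.5 to 77.4). Fewer stood as high as a typical TAZ4SA peak, whose median was 5.99. YAP5SA reached that level in 146 regions, YAP-TFE3 in 119 and both in 47 (7.62%, 5.78 to 9.98). A fold enrichment of one protein is not that of another, so these counts do not say what TAZ4SA would have given. The scales also differ, since the caller added 1 to scaled coverage and background. The lowest scaled background was 2.33 for TAZ4SA and 2.52 for TAZ-CAMTA1, against 3.28 for YAP5SA and 3.73 for YAP-TFE3. The same fold enrichment thus stands for a larger excess over background in the TAZ lists, and on this ground the counts run high. On a raised background, TAZ peaks passed at lower values, down to 1.705 for TAZ4SA and 1.78 for TAZ-CAMTA1. The levels of 3.61 and 3.41 therefore do not hold for regions with a raised background.

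Chromosomes 5 and 20 held a larger share of the 617 regions than of the YAP5SA and YAP-TFE3 regions with a TAZ peak. Chromosome 5 had 138 of the 617 (22.4%, 19.3 to 25.8), against 13.2% (10.8 to 15.97) of the 667 regions with TAZ4SA or TAZ-CAMTA1. Chromosome 20 had 76 (12.3%, 9.96 to 15.1), against 7.20% (5.47 to 9.41). Chromosome 13 had 26 (4.21%, 2.89 to 6.10), against 1.95% (1.14 to 3.31). Chromosome 7 went the other way, with 64 regions (10.4%, 8.21 to 13.03) against 13.3% (10.97 to 16.1), as did chromosome 11, with 50 (8.10%, 6.201 to 10.5) against 9.60% (7.59 to 12.1), and the intervals of chromosomes 7, 11 and 13 overlapped.

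Stated per chromosome, 58.7% (52.3 to 64.8) of the 235 YAP5SA and YAP-TFE3 regions on chromosome 5 lacked TAZ and TFE3 peaks. The share was 60.3% (51.6 to 68.4) of 126 on chromosome 20 and 66.7% (51.0 to 79.4) of 39 on chromosome 13. Outside chromosomes 5 and 20 it was 40.3%, 403 of 1000. Within each bin of YAP5SA fold enrichment, chromosome 5 also held more of the regions without TAZ peaks than of the others, from 25.2% against 13.1% in the lowest bin to 26.7% against 16.9% in the highest. For chromosome 20 the shares were 13.3% against 8.64% in the highest YAP5SA bin. Binned by the geometric mean of both fold enrichments, its highest bin showed no excess (6.49% against 6.64%), whereas chromosome 5 had 22.1% against 15.8%. Among regions bound by YAP5SA and no other construct, chromosome 5 held 21.5% and chromosome 20 held 7.54%. Among those bound by YAP-TFE3 and no other construct, the shares were 16.3% and 7.62%. Over all 6543 regions the shares were 15.9% (15.1 to 16.8) and 7.24% (6.64 to 7.90). The chromosome 5 share was thus above that background in regions of YAP5SA alone and close to it in regions of YAP-TFE3 alone, while both single-construct groups were close to it on chromosome 20.

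**Figure D4:**
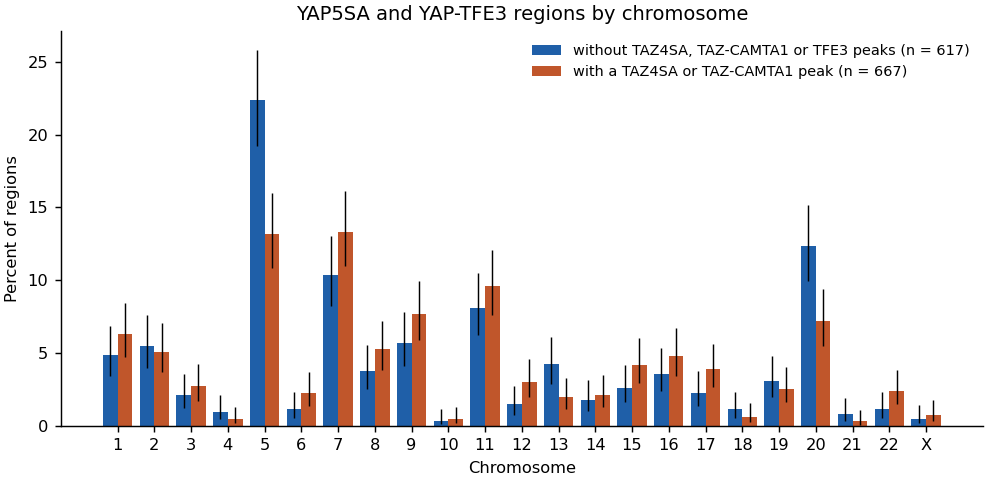
Percent of regions on each chromosome (vertical) for the 617 YAP5SA and YAP-TFE3 regions without TAZ4SA, TAZ-CAMTA1 or TFE3 peaks (blue) and the 667 with a TAZ4SA or TAZ-CAMTA1 peak (orange). Lines are 95% Wilson intervals, and the intervals of both groups do not overlap on chromosomes 5 and 20.

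Local background at the summits was raised on some of these chromosomes. The lowest background that peaks of a list shared was taken as the genome-wide level, and a summit above it lay where the caller found more control fragments. On chromosome 5, 51.8% of the YAP5SA summits (43.5 to 60.0) and 48.9% of the YAP-TFE3 summits (40.7 to 57.2) in the 617 regions had a raised background. On chromosome 20 the shares were 13.2% and 26.7%, and on chromosome 7 they were 14.1% and 18.8%. Chromosome 13 had 73.1% and 80.8%, with 26 regions, and chromosome 19 had 68.4% in both lists, with 19. The other YAP5SA and YAP-TFE3 regions of chromosome 5 had like shares, 47.4% (37.8 to 57.3) for YAP5SA and 47.9% (38.2 to 57.8) for YAP-TFE3. Copy number and chromatin were not measured here, and their part in the chromosome shares was not tested.

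**Figure D5:**
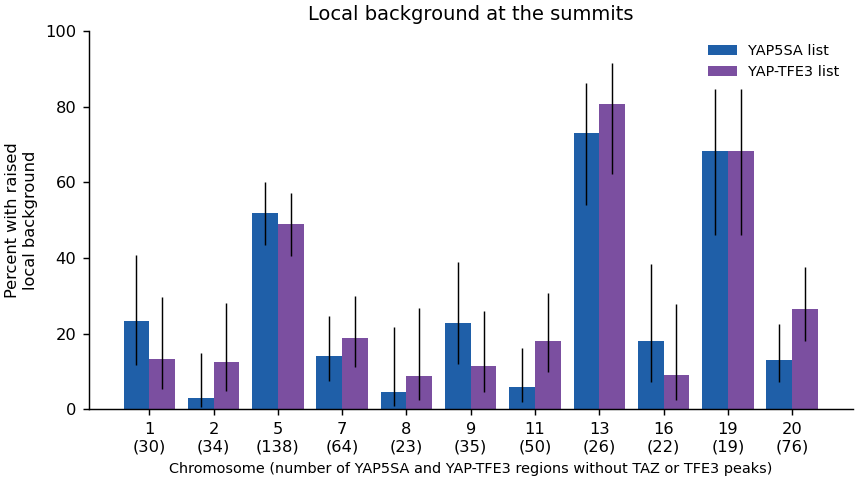
Percent of summits in the 617 regions with a local background above the lowest of its list (vertical) for the 11 chromosomes with 19 or more of these regions (horizontal, number of regions in brackets), in the YAP5SA list (blue) and the YAP-TFE3 list (purple). Lines are 95% Wilson intervals, and chromosomes 5, 13 and 19 stand above the others shown.

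Along chromosome 5 the regions were spread over most 10 Mb steps. The step from 70 to 80 Mb held 25 of them, of 37 regions with both YAP constructs, the step from 50 to 60 Mb held 18 of 29, and the step from 10 to 20 Mb held 17 of 25. No region of both YAP constructs lay between 20 and 30 Mb. On chromosome 20 the step from 40 to 50 Mb held the most, 20 of 35.

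Some of the regions lay near each other, although spacing was not computed for other regions. The distance from a region to the nearest other member had a median of 332 kb, and 173 regions (28.0%) had another within 100 kb. These 173 formed 66 clusters, of which 43 were pairs. Chromosome 5 held 26 of the clusters with 66 regions, chromosome 20 held 13 with 34, and chromosome 19 held 2 with 13. Of the 19 regions on chromosome 19, 13 were thus in its 2 clusters, while chromosome 5 had many small ones.

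The largest cluster, chr19:50595736-50640702, held 8 regions in 45.0 kb. Its YAP5SA fold enrichments ran from 2.53 to 5.20 and its YAP-TFE3 fold enrichments from 2.17 to 17.1, with the highest value of each at chr19:50639909-50640702. The local background reached 32.6 fragments in the YAP5SA list and 47.7 in the YAP-TFE3 list in this cluster, against genome-wide levels of 10.7 and 10.5. A second cluster on the same chromosome, chr19:48407466-48460981, held 5 regions in 53.5 kb, with YAP5SA values from 2.68 to 8.48 and YAP-TFE3 values from 2.43 to 18.2. Both clusters thus held 1 region with a YAP-TFE3 value above 17 beside weaker ones.

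On chromosome 5, the cluster chr5:135342489-135390117 held 5 regions in 47.6 kb, including the region with the CAMTA1 peak. YAP5SA ran there from 3.82 to 10.4 and YAP-TFE3 from 4.35 to 11.3, and the backgrounds were at or close to the genome-wide level. The regions of this cluster did not lean one way, with ratios from 0.766 at chr5:135352611-135353749 to 2.07 at chr5:135354550-135356018. A looser cluster of 6 regions spanned 214 kb at chr9:137348426-137562567, with YAP5SA from 3.60 to 7.04 and YAP-TFE3 from 3.15 to 8.11.

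Distances to the nearest TAZ peak were computed for the members only. Whether TAZ peaks lay nearer to them than to other regions was not tested. The nearest TAZ4SA or TAZ-CAMTA1 peak was at a median of 104 kb, and 305 regions (49.4%) had one within 100 kb, 88 (14.3%) within 10 kb and 16 within 1 kb. The closest were chr9:109678885-109679460 and chr9:116383718-116384211, at 154 and 158 bp from a TAZ-CAMTA1 peak, and chr11:12308596-12308947, at 192 bp from another. The one at chr9:116383718-116384211 was among the stronger regions, with 9.26 for YAP5SA and 5.78 for YAP-TFE3. TFE3 peaks, which are fewer, were farther away, at a median of 1876 kb with 7 regions within 10 kb.

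At the threshold of the rule, the members just inside were those whose weaker peak barely passed q = 0.1. These were chr9:69801424-69801826 (−log10 q of 1.05 for YAP5SA and 2.55 for YAP-TFE3), chr19:50614193-50614862 (4.64 and 1.05) and chr19:50595736-50596354 (1.06 and 1.81). Just outside were regions dropped for a single weak peak of an excluded list. At chr9:132524109-132525255 it was a TAZ-CAMTA1 peak with a −log10 q of 1.12, at chr16:85645694-85646369 a TAZ4SA peak with 1.15, and at chr19:48456906-48457387 a TFE3 peak with 1.16. The YAP5SA and YAP-TFE3 fold enrichments at these 3 were 3.27 and 3.60, 3.24 and 4.95, and 2.40 and 4.11, which lay within the range of the members.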

How the data were processed

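The members and the lists compared were chosen with earlier results of these data known. Of 34 libraries, 18 were Flag immunoprecipitations, 2 EV IgG and 14 inputs, grouped by their deposited titles. Per the study's methods, replicate reads were pooled per construct by the authors, trimmed (Atropos) and aligned to GRCh37 (BWA-MEM). Reads with several placements and greylisted regions were removed, and macs2 called peaks from whole fragments at q = 0.1. Which control libraries set the local background is not given in the sources used here. The labels name GRCh38 and bcl2fastq in the submitters' processing notes. Against the supplied GRCh38 genome, 45 of 10414 deposited peaks ran beyond a chromosome, so GRCh37 was kept and genes, promoters, motifs and sequence were not analysed here.

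Each of the 7 deposited lists gives positions and summits. Fold enrichment was deposited by the authors as a ratio of coverage to background with a pseudocount of 1, and p-values and q-values as −log10 values. The deposited display score was not used. With 1 pooled list per construct there is no replicate error.

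Overlapping peaks (at least 1 bp) were merged. A region took the highest fold enrichment of each list. Fragments and background at each summit were solved from the fold enrichment and p-value, given whole fragments (tolerance 0.001 in −log10 p), which was tested on simulated data. Fold intervals are exact 95% Poisson intervals of the fragments with the background held fixed, and shares have 95% Wilson intervals. Both cover counting error only, and neighbouring regions are not independent. The limit given for a share of 0 is that of 3 counts. A cluster joined members at most 100 kb apart. Named regions were the 10 strongest by geometric mean, the 5 highest and 5 lowest ratios, holders of CAMTA1 or EV IgG peaks, the 3 with most peaks, the widest and narrowest, the 3 just inside and 3 just outside the threshold, and the 3 closest to an excluded peak. Regions of a named cluster were added after their values were seen. Alternatives were a gap of up to 500 bp, 50% reciprocal overlap, q below 0.01, shortened YAP5SA and YAP-TFE3 lists, another choice of peak, regions with 1 peak per list, a fold of 2 and a centred ratio. Leaving out chromosomes 5 and 20, and all alternatives for the share at or above the fold enrichment that TAZ4SA needed, were chosen after seeing the data. The software was matplotlib 3.10.9, scipy 1.17.1, pandas 2.3.3, numpy 2.4.6 and Python 3.11.15.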

Additional observations from a re-analysis of the deposited data

How the results depend on the processing

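No paired analysis was possible because peaks were called on pooled replicates, which also leaves no replicate to leave out. Of 75 alternative values over 10 results, 57 stayed within the spread used and 18 moved. With the YAP5SA and YAP-TFE3 lists shortened to 1166 peaks, 94 regions were in the class (24.2%), with YAP-TFE3 more than 1.5-fold higher in 5 and YAP5SA in 11, a median summit distance of 21 bp, 9.57% on chromosome 20, 0 CAMTA1 peaks, and a YAP5SA fold enrichment at or above the 3.61 that TAZ4SA needed in 100%. Fewer and stronger peaks enter by construction. With 50% reciprocal overlap, YAP-TFE3 was more than 1.5-fold higher in 35 of 432 regions, the summit distance was 35.5 bp and 0 regions held a CAMTA1 peak. With q below 0.01, in all lists or in the YAP lists, the YAP5SA fold enrichment reached the 3.61 that TAZ4SA needed in 94.6%, against 86.1% of the 617. A fold of 2 left 18 regions with YAP-TFE3 higher and 22 with YAP5SA higher. Without chromosomes 5 and 20 the class made up 40.3% of regions with both YAP peaks. YAP-TFE3 was more than 1.5-fold higher in 36 of these 403 (8.93%) and YAP5SA in 45 (11.2%). Of all 1000 regions with both peaks there, the shares were 13.4% and 17.8%. Of 182 alternative values for named regions 181 kept their direction, and the ratio at chr19:50614193-50614862 turned to 1.03 where peaks up to 500 bp apart were joined. The alternatives mostly changed which regions were members and not the deposited values. A region that stayed thus kept its ratio by construction in most settings, and a turn was counted only for ratios past 1.5-fold. Of the 30 named members, 12 stayed members with shortened lists, 13 with 50% reciprocal overlap, 21 with q below 0.01 in all lists and 27 with the 500 bp gap. The 4 planned results on motifs and gene starts were not run. Depth limits what the absence of a TAZ call can say.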
